A study of Homo sapiens with 4 samples.

Results

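The genes described here are 10 regulators of entry into and exit from mitosis: the kinase CDK1 and its cyclins CCNA2, CCNB1 and CCNB2, the kinases PLK1, AURKA and AURKB, and the exit factors CDC20, UBE2C and PTTG1. They were taken by gene name from the 33880 genes of the expression table, each name matched 1 row, and all 10 had a mean of at least 0.5 RPKM (reads of a gene scaled to its length and to the size of the library), the level above which genes were tested. Every one of the 10 had its 2 LV-TOX3 values below its 2 LV-CON values, as did 20.6% of the 14184 genes tested. The difference in group means ran from 9.87% for CDK1 to 32.7% for UBE2C. In the limma test adjusted over all genes 0 of the 10 passed. Of genes tested, 0.00% passed it in the lower direction and 0.00705% in the higher one.

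KGN is an established line of human granulosa-like tumor cells. It was infected with a control lentivirus (LV-CON) or with one carrying TOX3 (LV-TOX3), both diluted 1:200 and both with a puromycin resistance gene, and selected over 2 passages with puromycin at 2 mg/ml. RNA was sequenced in 2 libraries per group. All libraries thus share the line, the infection and the selection, and no picking of clones is described. For TOX3 itself 1586 and 1428 reads were counted in LV-TOX3 and 0 in LV-CON, so that it was at least 529-fold higher against a floor of 3 reads per LV-CON library. The comparison is of cells with TOX3 introduced against cells without detected TOX3 RNA. The libraries held between 16403371 and 17858746 reads. The granulosa transcription factors FOXL2 (10.5 to 10.99 RPKM) and NR5A1 (21.0 to 21.7 RPKM) and the keratin KRT18 (469 to 622 RPKM) were present in every library. Of 13 markers of other cell types 2 passed the filter on low values, LUM at 1.01 to 1.32 RPKM and PTPRC at 0.501 to 0.763 RPKM, and the germ cell marker DDX4 and the theca cell marker INSL3 were at 0 in all 4 libraries. Of 14 markers listed for granulosa cells 12 passed that filter, and AMHR2 and NR5A2 lay below it. Of the 12, INHA (0.703 to 1.09 RPKM), WT1 (0.852 to 1.10) and WNT4 (0.784 to 1.78) were as low as LUM and PTPRC or little higher. In bulk RNA, fewer cells in mitosis and less mitotic RNA per cell cannot be told apart.

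Cells enter mitosis when CDK1, bound to cyclin A and then cyclin B, is activated, with PLK1 and AURKA helping to switch it on. Exit begins when CDC20 turns on the anaphase-promoting complex (APC/C), a ubiquitin ligase that works with the enzyme UBE2C and marks securin (PTTG1) and the cyclins for destruction. RNA of these genes is low early in the cell cycle and accumulates towards mitosis. Granulosa cells divide rapidly in the growing follicle, and their tumor lines divide continuously in culture.

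This late accumulation is known to run through short promoter elements, the cell cycle genes homology region (CHR), which repressor and activator complexes of the MuvB family bind, and CCAAT boxes, which the factor NF-Y binds. The promoters of 8 of the 10 genes were held in the RefSeq table (build GRCh38.p14, 250 bases before to 50 after the start), with 11 starts in all. AURKA and UBE2C were not matched. The sequences that follow are shown because these genes had lower values together, and they run from 110 bases before to 50 after the annotated start, 5′ to 3′ on the strand of the gene. Capitals mark TTTGAA (the CHR), its variants CTTGAA and TTTAAA, and CCAAT, matched on both strands.
CCNB1 (chr5:69167040-69167199, + strand): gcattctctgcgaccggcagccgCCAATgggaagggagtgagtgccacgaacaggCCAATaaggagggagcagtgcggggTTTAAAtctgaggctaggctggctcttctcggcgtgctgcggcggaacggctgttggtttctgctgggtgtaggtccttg
CCNB2 (chr15:59105036-59105195, + strand): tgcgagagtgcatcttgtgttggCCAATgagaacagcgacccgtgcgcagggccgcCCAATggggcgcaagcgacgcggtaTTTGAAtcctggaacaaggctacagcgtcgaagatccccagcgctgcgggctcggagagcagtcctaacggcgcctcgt
PTTG1 (chr5:160421745-160421904, + strand): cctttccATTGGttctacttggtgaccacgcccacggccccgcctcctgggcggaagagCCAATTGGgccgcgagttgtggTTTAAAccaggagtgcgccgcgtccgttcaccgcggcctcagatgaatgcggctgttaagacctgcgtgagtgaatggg
PLK1 (chr16:23678779-23678938, + strand): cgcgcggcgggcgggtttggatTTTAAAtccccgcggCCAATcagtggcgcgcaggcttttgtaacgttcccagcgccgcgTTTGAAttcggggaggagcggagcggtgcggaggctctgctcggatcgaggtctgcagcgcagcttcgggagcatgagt
CCNA2 (chr4:121823834-121823993, - strand): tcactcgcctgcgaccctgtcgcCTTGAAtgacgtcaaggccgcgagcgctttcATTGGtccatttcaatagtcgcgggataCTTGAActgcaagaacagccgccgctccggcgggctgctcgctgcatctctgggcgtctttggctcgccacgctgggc
CDC20 (chr1:43358871-43359030, + strand): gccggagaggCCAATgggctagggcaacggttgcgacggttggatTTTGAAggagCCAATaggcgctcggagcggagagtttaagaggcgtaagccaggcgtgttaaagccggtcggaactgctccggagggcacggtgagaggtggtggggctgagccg
CDK1 (chr10:60778368-60778527, + strand): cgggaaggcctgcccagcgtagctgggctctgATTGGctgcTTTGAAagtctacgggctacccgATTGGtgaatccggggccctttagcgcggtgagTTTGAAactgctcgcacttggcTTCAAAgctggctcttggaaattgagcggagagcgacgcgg

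CCNB1, CCNB2, PTTG1, PLK1 and CCNA2 each held a CHR or a variant with its last base at -25 to -23, counted from the start. In CCNB2 and PLK1 it was the CHR itself, in CCNB1 and PTTG1 the variant TTTAAA, and in CCNA2 the other variant. Variants also lay further upstream in CCNA2 (-87 to -82), PLK1 (-88 to -83 and -148 to -143) and CCNB2 (-193 to -188). CDC20 had the CHR from -65 to -60 and from -178 to -173, and CDK1, shown for the downstream of its 2 starts, had 3 matches to the CHR at that start. Matches more than 110 bases before the start are outside the printed stretch, and the counts that follow cover all 300 bases. AURKB had 0 matches to these 3 motifs at either start and a CCAAT match at each. CCAAT was found in all 11 promoters of the 8 genes and in 34.6% of the 35116 promoters of the table. In PTTG1 its matches on the 2 strands overlap each other by 2 bases. The CHR was found in 5 of the 11 promoters (4 genes), the variant of CCNA2 in 1 (1 gene) and that of CCNB1 in 6 (5 genes). Among all promoters the shares were 15.2%, 11.2% and 12.2%. The promoters of the 2 starts of a gene overlap, so that 1 match can count in both, as the TTTAAA of PTTG1 does. CCAAT together with any of these 3 was found in 9 of the 11, of 7 genes, against 4228 of all 35116. These matches are a description of letters, and binding of any factor was not measured.

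**Figure D1:**
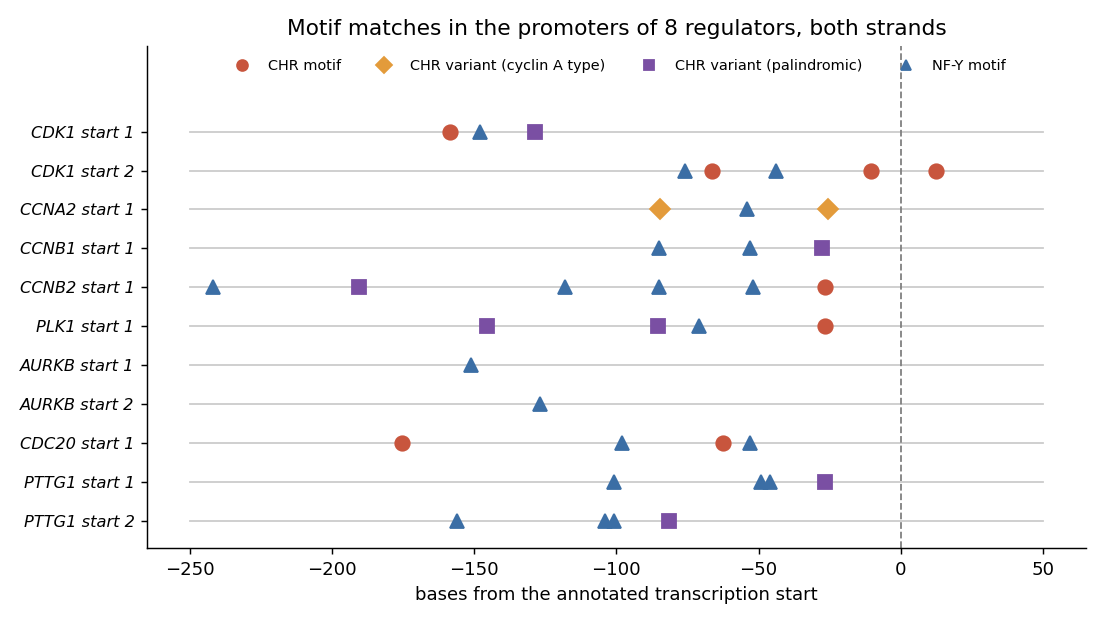
Positions of motif matches in the promoters of 8 regulators. The x axis gives bases from the annotated transcription start (dashed line), each grey line is 1 of the 11 promoters, and each symbol is a match on either strand; matches to the CHR or a variant ended at -25 to -23 in CCNB1, CCNB2, PTTG1 (first start), PLK1 and CCNA2.

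CDK1, the kinase that drives mitosis (chromosome 10 of hg38, 60778331 to 60794852), had the smallest difference of the 10. In replicates 1 and 2 it had 23.1 and 24.8 RPKM for LV-CON and 21.5 and 21.7 RPKM for LV-TOX3, and values of other genes follow in that order. The groups did not overlap, and the lowest LV-CON library lay 1.38 RPKM above the highest LV-TOX3 library, less than the 1.69 RPKM between the LV-CON libraries. Its log2 fold change was -0.15 (SE, the standard error, 0.07, 95% interval -0.34 to 0.04, adjusted p = 0.76 from limma). Fold changes here are on the log2(RPKM + 0.1) scale.

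Cyclin A2 (CCNA2), which partners CDK1 before the cyclins of the B type, had 37.9 and 40.7 RPKM in LV-CON against 28.8 and 33.0 RPKM in LV-TOX3. Both LV-TOX3 libraries were low and the groups were separate (log2 fold change -0.35, SE 0.09, adjusted p = 0.67 from limma). The gene lies on chromosome 4 from 121816444 to 121823883 and shares 254 bases of exon with EXOSC9 on the other strand, whose values, 13.7 and 14.8 RPKM in LV-CON against 15.1 and 17.9 in LV-TOX3, lay on the opposite side. Whether reads were counted by strand is not given in the sources used here, so reads of that stretch cannot be assigned.

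Cyclin B1 (CCNB1, chromosome 5, 69167135 to 69178245), the main mitotic partner of CDK1, had 46.5 and 55.9 RPKM in LV-CON against 32.8 and 38.7 in LV-TOX3. Its group means of 51.2 ± 6.67 RPKM (SD, n = 2) and 35.8 ± 4.19 (SD, n = 2) differed by 30.1%, with a log2 fold change of -0.51 (SE 0.13, adjusted p = 0.66 from limma). Cyclin B2 (CCNB2, chromosome 15, 59105126 to 59125045), the second B-type cyclin, had 25.5 and 30.3 RPKM in LV-CON against 18.9 and 23.3 in LV-TOX3. The groups of CCNB2 were separate by 2.16 RPKM, less than the range within either group (4.81 and 4.37 RPKM). Its log2 fold change was -0.40 (SE 0.14, adjusted p = 0.72 from limma). The cyclin values thus lay further below LV-CON than those of the kinase they bind, and the difference between these genes was not tested.

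PLK1 (chromosome 16, 23677656 to 23690367), which helps to activate CDK1 and later to build the spindle, had the lowest level of the 10. It had 7.10 and 8.41 RPKM in LV-CON against 5.42 and 6.01 RPKM in LV-TOX3, and both LV-TOX3 libraries were below both LV-CON libraries (log2 fold change -0.43, SE 0.12, adjusted p = 0.68 from limma). AURKA (chromosome 20, 56369389 to 56392337), the Aurora kinase of centrosomes and spindle poles, had 17.3 and 18.7 RPKM in LV-CON against 11.7 and 13.9 in LV-TOX3. Its gap of 3.34 RPKM between the groups was wider than the range within either (1.43 and 2.24 RPKM), and its log2 fold change was -0.49 (SE 0.11, adjusted p = 0.66 from limma).

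AURKB (chromosome 17, 8204733 to 8210600), the Aurora kinase of the chromosomal passenger complex, barely separated the groups. It had 14.776 and 16.766 RPKM in LV-CON against 11.250 and 14.772 in LV-TOX3, so that LV-CON replicate 1 and LV-TOX3 replicate 2 had nearly the same value (588 and 543 reads in libraries of different depth). Its log2 fold change was -0.29 (SE 0.15, 95% interval -0.68 to 0.11, adjusted p = 0.78 from limma), and it was -0.09 without LV-TOX3 replicate 1.

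Among the exit factors, CDC20 (chromosome 1, 43358981 to 43363203), the activator of the APC/C, had the highest level and the widest spread. It had 53.7 and 65.0 RPKM in LV-CON against 34.3 and 49.98 in LV-TOX3. The groups were separate, but the range within LV-TOX3 (15.7 RPKM) was larger than the gap between the groups (3.71 RPKM), and the log2 fold change of -0.51 (SE 0.20, 95% interval -1.04 to 0.01, adjusted p = 0.72 from limma) became -0.24 when LV-TOX3 replicate 1 was left out and -0.78 when replicate 2 was. UBE2C (chromosome 20, 45812576 to 45816957), the ubiquitin-conjugating enzyme of the APC/C, had 46.0 and 48.2 RPKM in LV-CON against 29.5 and 33.8 in LV-TOX3. Its LV-CON libraries had the smallest ratio to each other (1.05), and its gap of 12.1 RPKM between the groups was the widest of the 10. Its log2 fold change was -0.57 (SE 0.09, 95% interval -0.81 to -0.34, adjusted p = 0.66 from limma), and it had the 32nd smallest p of the 14184 genes tested. Securin (PTTG1, chromosome 5, 160421855 to 160428739), which holds back the protease that separates sister chromatids, had 28.9 and 32.2 RPKM in LV-CON against 18.4 and 22.7 in LV-TOX3. The groups were separate by 6.13 RPKM, more than the range within either, and its log2 fold change was -0.57 (SE 0.13, adjusted p = 0.66 from limma). Pseudogene copies of CDC20, UBE2C and CCNB2 in the table had at most 8 reads in any library.

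**Figure D2:**
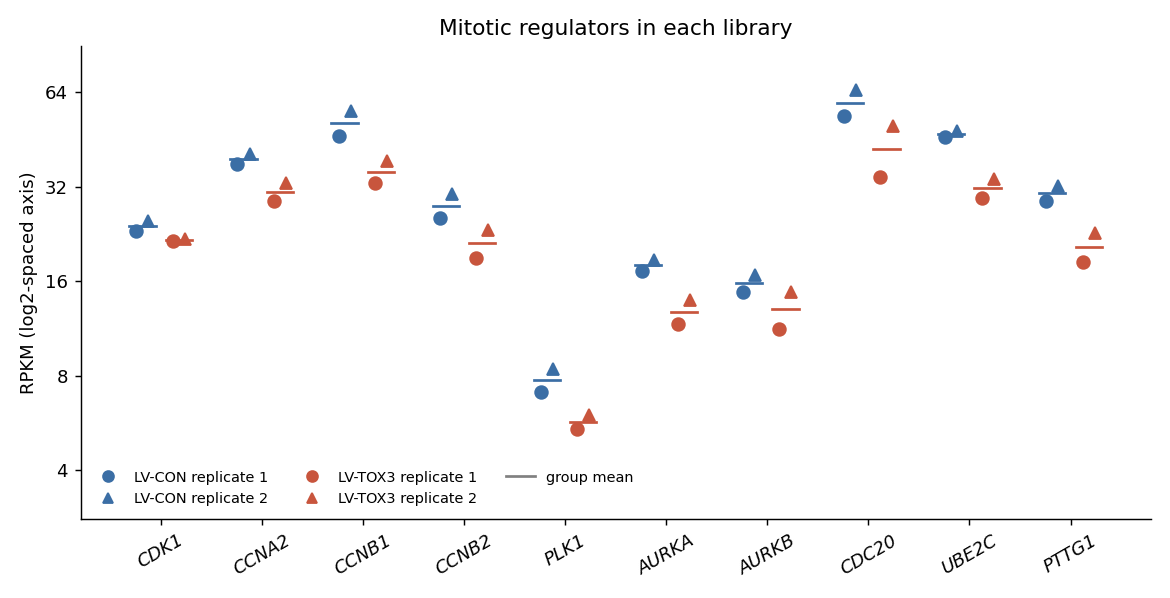
RPKM of the 10 regulators in each of the 4 libraries, on a log2-spaced axis. Blue marks LV-CON and red LV-TOX3, circles are replicate 1 and triangles replicate 2, and lines are group means; every red symbol lies below both blue symbols of its gene, with AURKB at 14.772 against 14.776 RPKM.

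In LV-CON the order of levels was CDC20, CCNB1, UBE2C, CCNA2, PTTG1, CCNB2, CDK1, AURKA, AURKB and PLK1, from 59.3 ± 8.002 RPKM (SD, n = 2) down to 7.75 ± 0.928 (SD, n = 2). Neighbours whose library values overlapped were CDC20 and CCNB1, CCNB1 and UBE2C, and PTTG1 and CCNB2. In LV-TOX3 the order was alike at the top and bottom, but CDK1 stood above CCNB2 and PTTG1, and AURKB above AURKA, in each case with overlapping library values. Levels are per length of gene, and the order depends on the length used, which the values put at 1286 bases for UBE2C and 4760 for PLK1. Summed over the 10 genes the level was 300.6 and 340.9 RPKM in LV-CON against 212.6 and 258.1 RPKM in LV-TOX3.

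All 10 genes had both LV-TOX3 libraries below both LV-CON libraries, which held for 20.6% of the 14184 genes tested (the reverse held for 17.0% of genes and 0 of the 10). All 10 had a log2 fold change below 0, as did 53.2% of genes tested (46.8% lay above 0), and their median was -0.46, against -0.01 over all genes tested. In limma 0 of the 10 passed an adjusted p of 0.05 (range of adjusted p 0.66 to 0.78), where 0.00% of genes tested passed it in the lower direction and 0.00705%, TOX3 alone, in the higher one. At an unadjusted p under 0.05, 7 of the 10 were lower (AURKA, PLK1, CCNA2, CCNB1, CCNB2, UBE2C and PTTG1), against 3.73% of genes tested, 0 were higher, against 3.07%, and AURKB, CDK1 and CDC20 were not. In limma-voom on reads recovered from the RPKM values, without a block, 0 of the 10 passed the adjusted p and 8 the unadjusted p, against 3.54% of genes tested that did so in the lower direction. The 7 were 1 (UBE2C) without LV-CON replicate 2, against 2.14% of genes, and 3 (AURKA, UBE2C and PTTG1) without LV-TOX3 replicate 1, against 3.31%. With 2 libraries per group the smallest two-sided p of an exact permutation test is 0.33, and the libraries are described as duplicates and as independent samples without naming separate cultures, so the spread between libraries that these p-values measure may be technical. Members of 1 program of expression are not independent of each other.

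**Figure D3:**
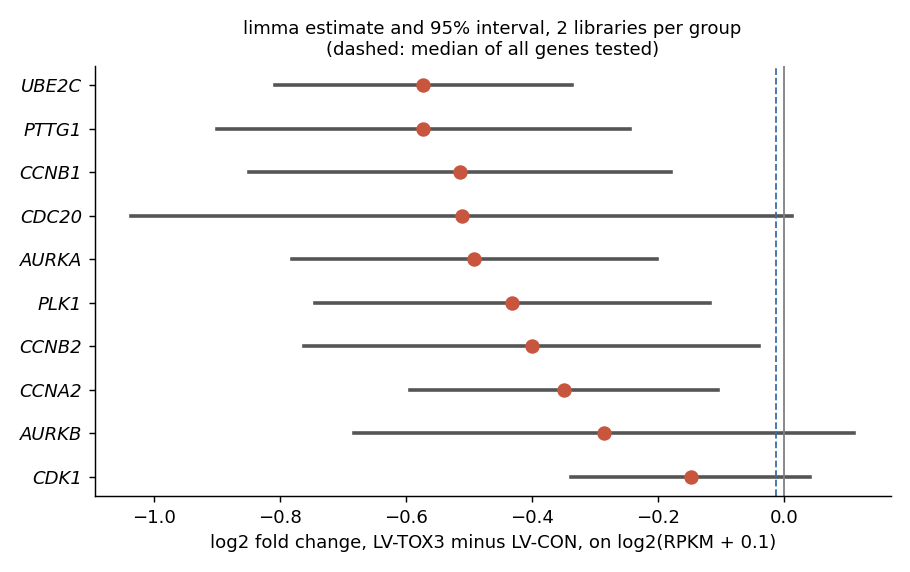
Log2 fold change of each regulator, LV-TOX3 minus LV-CON, from limma on log2(RPKM + 0.1) with 2 libraries per group. Points are estimates and bars 95% intervals; the intervals of CDC20, AURKB and CDK1 reach past 0, and the dashed line is the median of all genes tested, -0.01.

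Each LV-TOX3 library was also set over each LV-CON library, which gives 4 pairs that share libraries. The ratio was below 1 for all 10 genes in all 4 pairs, which restates that the groups were separate and lower. Over all genes tested, 48.5% to 55.0% had the lower value in the LV-TOX3 library, depending on the pair. LV-TOX3 replicate 1 over LV-CON replicate 1 gave ratios from 0.637 (PTTG1) to 0.928 (CDK1), with a median of 0.725. LV-TOX3 replicate 2 over LV-CON replicate 2 gave 0.693 (CCNB1) to 0.881 (AURKB), with a median of 0.757. Pairs of libraries with the same number thus gave similar medians. The crossed pairs differed more. LV-TOX3 replicate 1 over LV-CON replicate 2 gave the lowest ratios, 0.528 (CDC20) to 0.865 (CDK1) with a median of 0.625, and LV-TOX3 replicate 2 over LV-CON replicate 1 the highest, 0.736 (UBE2C) to 0.9997 (AURKB) with a median of 0.858. Over all genes tested and above 0 the median ratio lay between 0.980 and 1.006 in the 4 pairs.

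**Figure D4:**
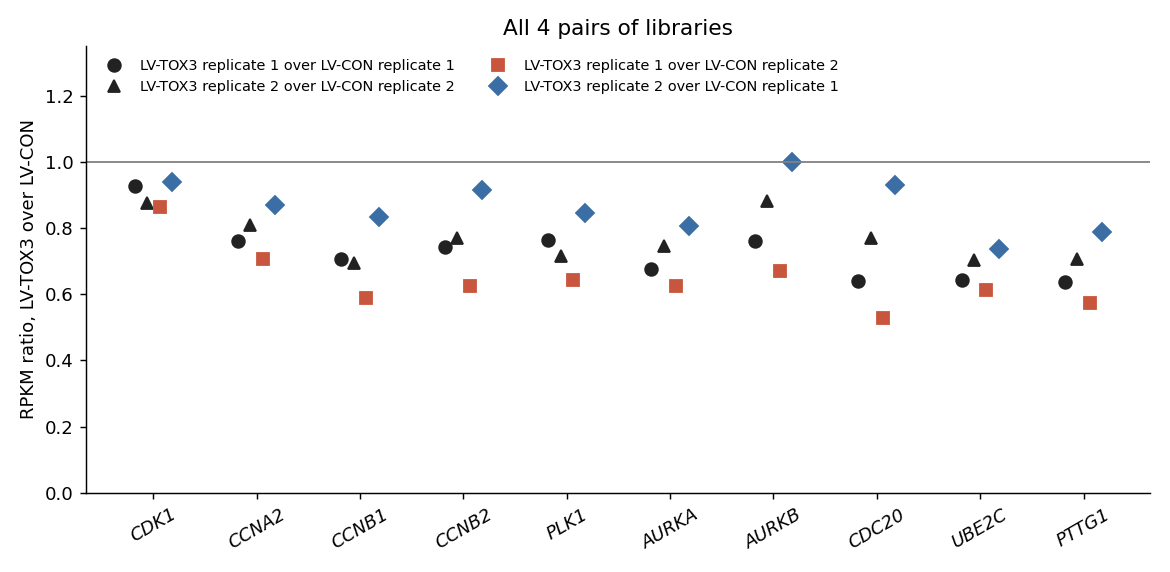
RPKM ratio of LV-TOX3 over LV-CON for all 4 pairs of libraries and all 10 regulators. Black symbols pair libraries with the same number, squares LV-TOX3 replicate 1 with LV-CON replicate 2 and diamonds LV-TOX3 replicate 2 with LV-CON replicate 1; the grey line is a ratio of 1, which AURKB nearly reaches in the last pair (0.9997).

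Replicate 2 was higher than replicate 1 in both groups for all 10 genes, which held for 34.3% of genes tested. The ratio of replicate 2 over replicate 1 ran from 1.05 (UBE2C) to 1.21 (CDC20) in LV-CON and from 1.01 (CDK1) to 1.46 (CDC20) in LV-TOX3. The separate groups and the higher replicate 2 together fix the order of all 10 genes from lowest to highest. It is LV-TOX3 replicate 1, LV-TOX3 replicate 2, LV-CON replicate 1, LV-CON replicate 2. The order restates those 2 counts and is no further result, and 6.01% of genes tested had it. What the replicate number stands for is not given in the sources used here. With 439 to 2553 reads per gene and library, the counting error was 1.98% to 4.77% of a value (SD, counting error only). The libraries of a group differed beyond it for some genes and not for others. For CDC20 the log2 ratio between the LV-TOX3 libraries was 0.54 with a counting error of 0.05, and for CDK1 it was 0.02 with a counting error of 0.05. In LV-TOX3 replicate 2 over LV-CON replicate 1, the closest pair, the log2 ratio of UBE2C was -0.44 (counting error 0.07) and that of AURKB was 0.00 (counting error 0.09).

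Other genes of the same steps were read from lists written by hand. Of 27 tested genes that activate, inhibit or oppose CDK1 or act with the mitotic kinases, 24 had a negative log2 fold change (median -0.23). Of all genes tested, 53.2% had one. The groups were separate and lower for 18, against 20.6% of genes tested, and separate and higher for 2 (WEE1 and ARPP19), against 17.0%. At an unadjusted p under 0.05, 10 were lower and 0 higher, against 3.73% and 3.07% of genes tested, and 0 passed the adjusted p. CKS1B, a small subunit of CDK complexes, had 30.1 and 29.3 RPKM in LV-CON against 23.1 and 23.4 in LV-TOX3. TPX2, the spindle activator of AURKA, had 46.9 and 49.1 RPKM in LV-CON against 33.7 and 37.8 in LV-TOX3. INCENP, the scaffold that binds AURKB, had 10.8 and 10.6 RPKM in LV-CON against 7.66 and 8.30 in LV-TOX3. The partners of both Aurora kinases thus had separate groups, with log2 fold changes of -0.43 for TPX2 and -0.42 for INCENP (adjusted p = 0.66 from limma for each). The kinase WEE1, which holds CDK1 inactive, had 7.28 and 7.45 RPKM in LV-CON against 7.94 and 7.60 in LV-TOX3. ARPP19 had 23.7 and 22.3 RPKM in LV-CON against 24.2 and 25.2 in LV-TOX3. Log2 fold changes were 0.08 for WEE1 and 0.10 for ARPP19 (adjusted p = 0.89 and 0.84 from limma). The kinase PKMYT1 had overlapping groups, with a log2 fold change of -0.03.

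Of 25 genes of the APC/C, its cofactors and its checkpoint inhibitors, 21 had a negative log2 fold change (median -0.11), against 53.2% of genes tested. The groups were separate and lower for 11, against 20.6% of genes tested, and separate and higher for 1, against 17.0%. That 1 was UBE2D1, with 7.30 and 4.95 RPKM in LV-CON against 7.53 and 8.11 in LV-TOX3. Its log2 fold change was 0.37 (adjusted p = 0.78 from limma). At an unadjusted p under 0.05, 0 were higher (3.07% of genes tested) and 2 were lower (3.73%). These were the checkpoint kinases TTK (7.71 and 8.78 RPKM in LV-CON against 6.07 and 6.56 in LV-TOX3) and BUB1 (9.37 and 11.2, 7.81 and 8.25), and the next by p was the subunit ANAPC7 (7.68 and 7.46, 6.57 and 6.52). Of the 14 core subunits of the complex on this list, 4 were separate and lower (ANAPC7, ANAPC10, ANAPC11 and CDC16), against 20.6% of genes tested. In the higher direction 0 were separate, against 17.0%, and 10 overlapped, with a median log2 fold change of -0.03. UBE2S, the enzyme that acts with UBE2C, had 31.6 and 41.3 RPKM in LV-CON against 27.8 and 39.9 in LV-TOX3, with overlapping groups.

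Of 21 tested genes of the factors that control transcription of mitotic genes, 11 had log2 fold changes below 0 and 10 above it, and their median of -0.01 was that of all genes tested. Of genes tested, 53.2% lay below 0 and 46.8% above it. The groups were separate for 3 in the lower and 5 in the higher direction, against 20.6% and 17.0% of genes tested. FOXM1 and MYBL2, which activate mitotic genes, had overlapping groups (20.4 and 22.9 RPKM in LV-CON against 18.7 and 21.2 in LV-TOX3 for FOXM1). The 3 with the smallest p were CDKN1A, a CDK inhibitor (166 and 141 RPKM in LV-CON against 129 and 103 in LV-TOX3), the retinoblastoma gene RB1 (15.8 and 14.4, 16.9 and 18.7) and LIN54, the MuvB subunit that contacts the CHR (3.39 and 3.42, 3.07 and 2.95). At an unadjusted p under 0.05, CDKN1A alone was lower and 0 were higher, against 3.73% and 3.07% of genes tested.

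Of 18 genes of S phase and proliferation, 9 lay below and 9 above a log2 fold change of 0 (median 0.01). The groups were separate for 6 in the lower direction and 1 (CCNE2) in the higher. Of genes tested, 53.2% lay below 0, 20.6% were separate and lower and 17.0% separate and higher. At an unadjusted p under 0.05, 3.73% of genes tested were lower and 3.07% higher. The 3 at an unadjusted p under 0.05, all lower, were MKI67, a marker of dividing cells (16.04 and 20.3 RPKM in LV-CON against 12.01 and 13.9 in LV-TOX3), the kinase TK1 (36.8 and 39.7, 29.7 and 33.5) and TOP2A, which untangles chromosomes (50.3 and 61.0, 38.8 and 46.0). MKI67 and TOP2A are highest late in the cell cycle. The other 3 with separate lower groups were MCM7, RRM1 and GMNN, with log2 fold changes of -0.12, -0.12 and -0.18. Of the 6 subunits of the MCM helicase, which unwinds DNA in S phase, 5 had overlapping groups. The other 1 was separate and lower, against 20.6% of genes tested. Whether the S phase genes differ from the mitotic regulators was not tested. No gene of these 4 lists passed the adjusted p of limma.

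**Figure D5:**
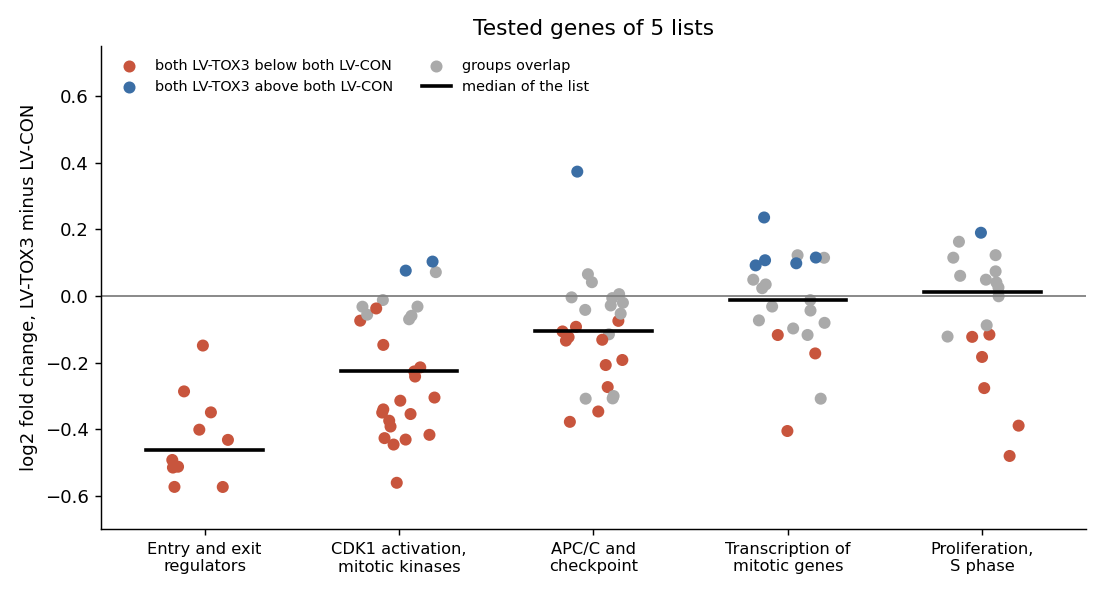
Log2 fold change, LV-TOX3 minus LV-CON, of the tested genes of 5 lists. Each point is a gene, red where both LV-TOX3 libraries lay below both LV-CON libraries, blue where they lay above and grey where the groups overlapped, and bars are list medians (-0.46, -0.23, -0.11, -0.01 and 0.01 from left to right).

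The genes whose profile over the 4 libraries lay closest to the mean of the 10 were searched for among the 7048 genes averaging 5 RPKM or more, by Euclidean distance of centred log2 values. The 5 closest outside the set were KIFC1, DLGAP5, KIF22, HJURP and IGFBP3, at distances from 0.03 to 0.07. For comparison, CCNB2 lay at 0.06 and CDK1, the farthest member, at 0.33. KIFC1 and KIF22 encode mitotic motor proteins, DLGAP5 a spindle protein and HJURP the chaperone of the centromeric histone. KIFC1 had 13.5 and 15.4 RPKM in LV-CON against 9.65 and 11.8 in LV-TOX3, and DLGAP5 had 15.96 and 18.3 in LV-CON against 11.2 and 13.8 in LV-TOX3. IGFBP3, a secreted binding protein of insulin-like growth factors, had the same order of libraries. The likeness is over 4 libraries only and was taken as a description.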

How the data were processed

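RPKM values of 33880 genes in 4 libraries were deposited by the authors, whose methods name SOAPnuke for filtering, HISAT2 for alignment (hg38) and expectation maximization for quantification. Versions were not given in the sources used here. Dividing each value by what 1 read was worth gave whole reads for 29088 of 29088 genes above 0 (relative tolerance 1e-09), a step checked on simulated data. Adjustment by ComBat, also named, would not leave whole reads, and estimates by expectation maximization need not be whole, so the quantifier behind this table is uncertain. Gene coordinates came from GENCODE v44 (hg38).

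The members and lists were chosen with earlier results of these data known. limma 3.58.1 in R 4.3.3 (lmFit, eBayes with trend) was fitted, two-sided, on log2(RPKM + 0.1) over 14184 genes averaging 0.5 RPKM or more, with Benjamini-Hochberg adjustment over them, and limma-voom on the recovered reads was an alternative. Others were pseudocounts of 1 and 0.01, no filter or one at 1 RPKM, scaling by median ratios, quantile normalization, a block for the replicate number, and each library left out. Named genes were TOX3, the 10 members, the 3 genes with the smallest p of each of 4 lists and the 5 with the closest profile. WEE1, ARPP19, PKMYT1, ANAPC10, ANAPC11, CDC16, UBE2D1, UBE2S, FOXM1, MYBL2, CCNE2, MCM7, RRM1, GMNN and EXOSC9 were named after their values were seen. Tables were handled in Python 3.11.15 with pandas 2.3.3. The other assays of the study were not analysed here.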

Additional observations from a re-analysis of the deposited data

How the results depend on the processing

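Since both LV-TOX3 values of all 10 regulators lay below both LV-CON values, other pseudocounts, filters and left-out libraries could not turn a direction. Median ratio scaling and quantile normalization could reorder the libraries, and all 10 were separate and lower under both. The median log2 fold change of the 10 ran from -0.58 to -0.31 with 1 library left out. It was closest to 0 without LV-TOX3 replicate 1 (-0.31) and without LV-CON replicate 2 (-0.34). In these fits a lone library was assumed to vary like the other group. The paper names batch effects of its sequencing among its limits, but no source ties the replicate number to a batch. With a replicate block on that number, limma gave 9 of the 10 at an unadjusted p under 0.05, against 6.99% of genes tested in the lower direction, and 0 at the adjusted p (lowest 0.18). Limma-voom on the recovered reads with that replicate block called 614 genes at the adjusted p, 303 of them lower (2.14% of genes tested). Among these were 8 of the 10 (adjusted p from 7.9e-09 for CCNB1 to 0.0016 for PLK1), and AURKB and CDK1 did not pass. Limma-voom without the block called 1 gene. With 4 libraries the blocked fit leaves little spread of each gene to measure. Its p-values thus rest mostly on a spread pooled over all genes. Deviations of same-numbered libraries from their group means correlated at 0.19 across 14184 genes, but with 2 pairs and no label behind them the numbers were not taken as a pairing of the samples. TOX3 was the 1 gene past the adjusted p in limma, and 0 genes passed with a pseudocount of 0.01, without the filter on low values or with any 1 library left out. Counting error was at most 4.77% of a value for the 10 genes.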
